A study of Mus musculus with 12 samples.

Results

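Elastic fibre and microfibril genes were examined in hearts of mice with mutant IDH2, the mitochondrial isocitrate dehydrogenase. The set was 10 genes chosen by name (Eln, Fbn1, Mfap2, Mfap4, Mfap5, Fbln1, Fbln2, Fbln5, Emilin1 and Ltbp2). It was chosen with earlier results of these data known, so shares of all genes given beside its counts are not an independent test. Of the 10, 9 had a probe set carrying only their symbol, of 19937 genes measured in that way. Fbn1 was not analysed here. Total heart RNA was hybridised to 12 arrays: 4 from control mice, 4 from IDH2 R140Q mutant mice and 4 from IDH2 R172K mutant mice, with each array labelled as a replicate. All animals had the same mixed C57BL/6, 129/sv and Balb/c background. Mutant animals were dosed with 2 mg of 4-hydroxytamoxifen (4-OHT), which is commonly used to activate Cre recombinase, on 3 days at 5 weeks of age. The age at dissection, what the control animals received, the driver of the recombination and the cells that carried the mutant enzyme do not appear in the labels. In each contrast with control, the drug and the mutation therefore cannot be told apart. Nothing in the labels says that replicates were separate animals, so the p-values cover the spread among these hearts or extracts, which may be technical.

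Elastic fibres give arteries, valves and the connective tissue of the heart their recoil. They consist of a core of cross-linked elastin laid down on a sheath of microfibrils, which are chains of fibrillin decorated with smaller glycoproteins. Fibroblasts and smooth muscle cells secrete most of these proteins, lysyl oxidases cross-link elastin, and microfibrils also hold latent TGF-beta in the matrix through its binding proteins.

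The deposited values were RMA intensities, and all levels below are log2 intensities of 1 probe set per gene. The probe sets were 10534343 for Eln, 10509901 for Mfap2, 10376778 for Mfap4, 10541496 for Mfap5, 10425945 for Fbln1, 10540085 for Fbln2, 10402211 for Fbln5, 10520604 for Emilin1 and 10401527 for Ltbp2. Array medians lay between 74.8 and 78.0 intensity units. The arrays were read as heart: 10 cardiomyocyte markers such as Myh6 and Tnnt2 summed to between 97578 and 102757 units in control, 89690 and 94505 in R140Q and 76261 and 92123 in R172K hearts. Every mutant array thus lay below every control array in this sum. The 7 lung epithelium markers summed to between 336 and 400 on 11 arrays and to 5155 on R140Q 4. Atrial markers summed to 29219 on control 3, the highest of all arrays, and to 1081 on R140Q 2, the lowest. Array weights estimated over all genes were lowest for R172K 3 (0.365) and R172K 4 (0.366), so counts are also given without these arrays. No marker is at 0, since RMA intensities have no true zero, and in whole-heart RNA fewer cells of a type and less RNA per cell cannot be told apart.

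The sequences just upstream of the transcription start are shown for 3 members that are described below, 2 that rose in R172K hearts (Mfap2 and Fbln5) and 1 that fell (Fbln1). They are RefSeq promoter windows of assembly GRCm38.p6, printed on the gene's own strand and cut at 250 bases before the start, and each lies outside the annotated gene. Of the 10 listed genes 7 had a window. Capitals mark matches, on either strand, to the Smad-binding element CAGAC, the TEAD site GGAATG or the GC box GGGCGG. No match to the AP-1 site TGANTCA or the TATA box TATAAA was found in these 3 windows.

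Upstream windows, 5′ to 3′, Mfap2 at chr4:141010174-141010423 (+ strand), Fbln5 at chr12:101819120-101819369 (- strand) and Fbln1 at chr15:85205699-85205948 (+ strand):
Mfap2: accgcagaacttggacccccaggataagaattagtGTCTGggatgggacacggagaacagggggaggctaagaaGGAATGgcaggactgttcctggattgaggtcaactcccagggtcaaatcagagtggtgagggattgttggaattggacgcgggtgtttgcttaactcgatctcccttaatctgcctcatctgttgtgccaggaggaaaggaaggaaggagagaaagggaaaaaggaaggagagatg
Fbln5: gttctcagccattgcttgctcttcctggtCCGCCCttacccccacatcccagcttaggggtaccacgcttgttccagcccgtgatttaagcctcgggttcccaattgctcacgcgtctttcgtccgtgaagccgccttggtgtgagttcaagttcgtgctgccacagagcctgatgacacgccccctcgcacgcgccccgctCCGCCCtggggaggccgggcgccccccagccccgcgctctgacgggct
Fbln1: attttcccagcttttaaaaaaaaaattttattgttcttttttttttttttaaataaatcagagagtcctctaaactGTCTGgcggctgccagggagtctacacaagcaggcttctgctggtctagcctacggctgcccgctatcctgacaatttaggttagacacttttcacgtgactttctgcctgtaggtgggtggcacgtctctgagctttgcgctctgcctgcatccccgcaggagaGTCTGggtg

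The Fbln1 window held 2 matches to CAGAC, which 42.2% of 32841 windows of the same length held at least once. The Mfap2 window held 1 match to CAGAC and 1 to GGAATG, found in 12.6% of windows. The Fbln5 window held 2 matches to GGGCGG, found in 32.7% of windows. TGANTCA was found in 6.8% and TATAAA in 12.4% of windows. RefSeq lists a further window for each of these 3 genes, for another transcript start, which is not printed. It lies wholly inside the annotated gene for Mfap2 and Fbln5 and runs into it for Fbln1. That window held 2 matches to GGGCGG for Mfap2, 2 to CAGAC for Fbln5, and 2 to CAGAC with 1 to GGGCGG for Fbln1, so which motifs the genes have in common turns on the start chosen. A match describes letters, not a bound site.

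The first comparison asked how the genes differed between R172K and control hearts. Of 9 measured members, 6 rose (Mfap5, Fbln2, Emilin1, Eln, Fbln5 and Mfap2), 1 fell (Fbln1), and Mfap4 and Ltbp2 did not pass the test (limma, Benjamini-Hochberg adjusted p under 0.05 over all 19937 genes). Over all genes, 6.23% were called higher and 6.78% lower in this contrast. The median difference of the members was 0.84 in log2, against -0.003 over all genes. The members had 0.57 as their median for R140Q against control, where all genes had 0.003 and no member passed.

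**Figure D1:**
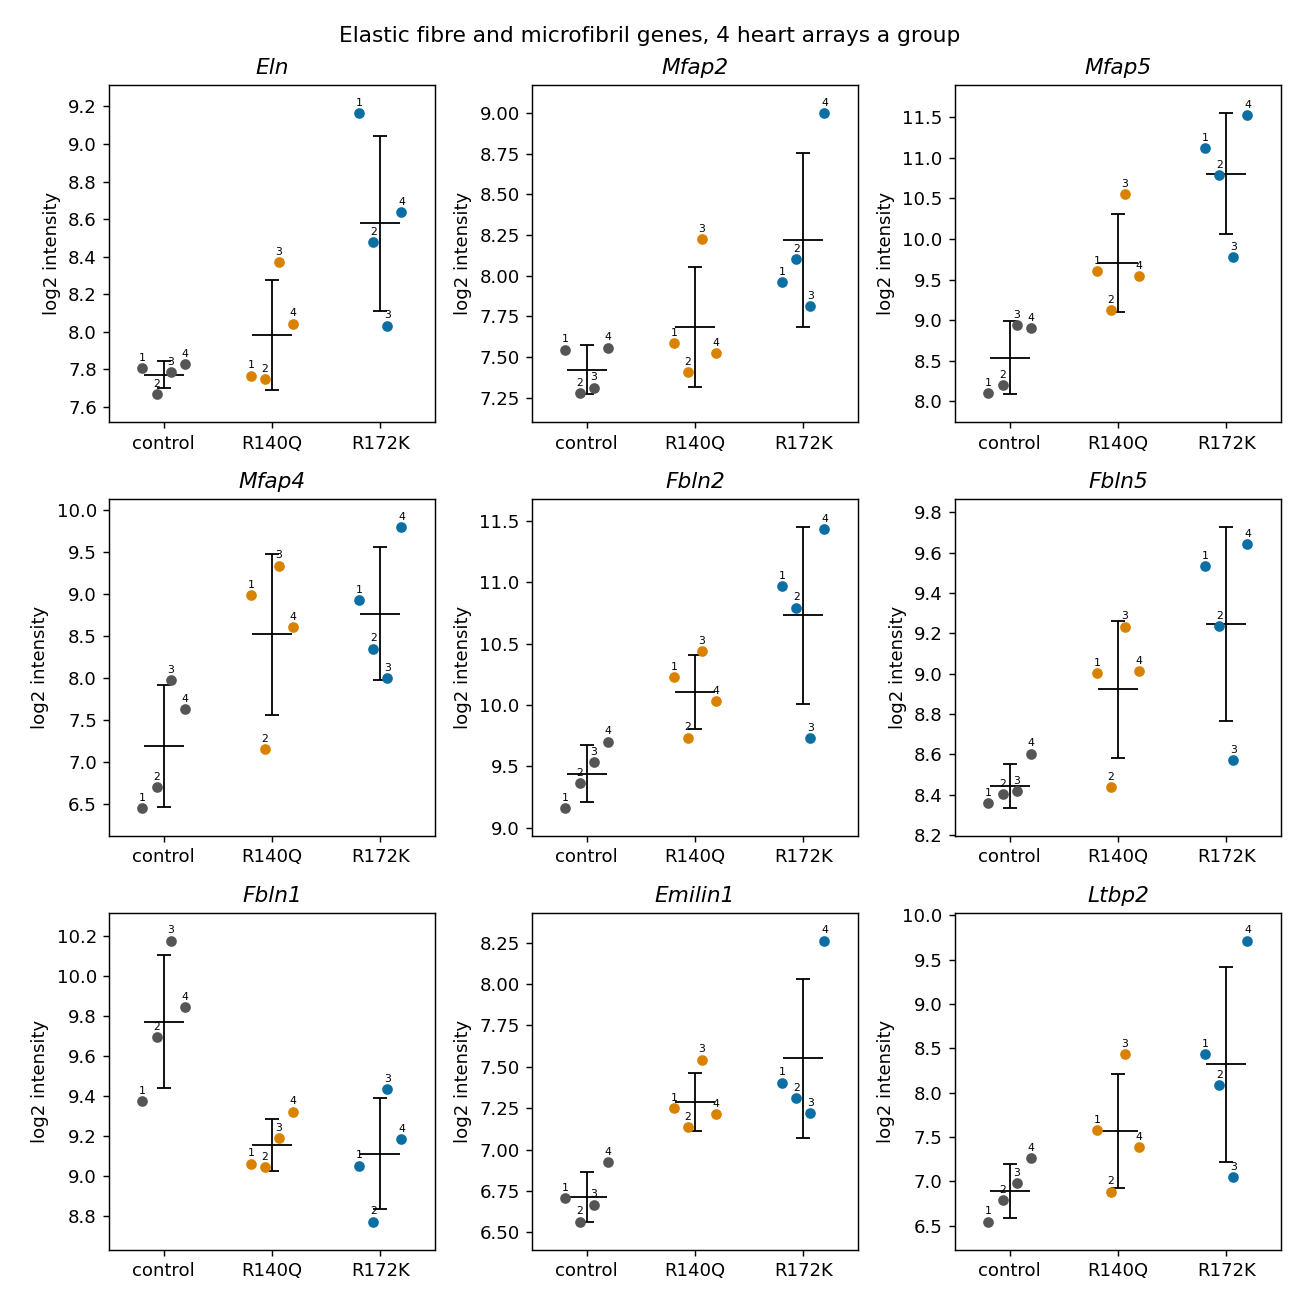
Log2 RMA intensity of the 9 measured genes (vertical axis, a scale of its own for each gene) in control, R140Q and R172K hearts. Each point is 1 array with its replicate number, and bars show the group mean ± SD (n = 4). Mfap5 lies between 8.10 and 8.94 in control and between 9.78 and 11.53 in R172K hearts, while Fbln1 is the only one of these genes whose mean is lower in both mutants.

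Eln encodes tropoelastin, the soluble monomer of the elastic core. Its level was 7.81, 7.67, 7.78 and 7.83 in the 4 control hearts, 7.77, 7.75, 8.37 and 8.04 in the R140Q hearts and 9.17, 8.48, 8.03 and 8.64 in the R172K hearts. Every R172K array lay above every control array, with R172K 1 the highest, whereas R140Q 1 and R140Q 2 lay within the control range. Eln rose by 0.81 ± 0.20 (SE) in R172K hearts, a 1.75-fold increase (limma adjusted p = 0.0199). It no longer passed once control 2 was left out (adjusted p = 0.0574). In R140Q hearts the difference of 0.21 ± 0.20 was as large as its error (adjusted p = 0.669).

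Mfap5 and Mfap2 encode the microfibril-associated glycoproteins, small proteins that bind fibrillin. Mfap5 stood at 8.10, 8.20, 8.94 and 8.90 in control, at 9.60, 9.12, 10.56 and 9.55 in R140Q and at 11.12, 10.79, 9.78 and 11.53 in R172K hearts. Neither mutant group overlapped the control group, and R172K 3 was the lowest of the R172K arrays, within the R140Q range. The R172K difference of 2.27 ± 0.37, or 4.82-fold, was the largest of the 9 (adjusted p = 0.00348) and passed under all 23 alternatives tried. For R140Q the difference was 1.17 ± 0.37 (adjusted p = 0.121). It passed without R172K 3, whose array enters only through the shared spread (adjusted p = 0.0451).

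Mfap2 was 7.55, 7.28, 7.31 and 7.56 in control, 7.59, 7.41, 8.23 and 7.52 in R140Q and 7.96, 8.10, 7.81 and 9.001 in R172K hearts. All R172K arrays were above the control arrays, with R172K 4 highest and R140Q 3 next. Mfap2 rose by 0.80 ± 0.24 in R172K hearts (adjusted p = 0.0431). This call was close to the threshold and ended under 13 of 23 alternatives. Among them were the replicate block (0.0639) and leaving out any 1 control array (0.0685 to 0.109), R140Q 1 (0.0573), R140Q 4 (0.0562), R172K 1 (0.0632), R172K 2 (0.0725) or R172K 4 (0.0645, with a difference of 0.54). In R140Q hearts, where R140Q 3 stood clear of the control range and the others lay in it or at its upper edge, the difference was 0.26 ± 0.24 (adjusted p = 0.648).

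Mfap4 encodes a microfibril-associated protein with a fibrinogen-like domain that binds elastin and fibrillin. It varied widely within groups, at 6.46, 6.70, 7.97 and 7.63 in control, 8.99, 7.15, 9.34 and 8.61 in R140Q and 8.93, 8.35, 7.997 and 9.80 in R172K hearts. The lowest R172K array barely exceeded the highest control array, and R140Q 2 fell inside the control range. Its differences were large but so were their errors, 1.58 ± 0.50 for R172K (adjusted p = 0.056) and 1.33 ± 0.50 for R140Q (adjusted p = 0.188). The R172K difference passed with the replicate block (0.0466), without control 3 (1.84, adjusted p = 0.0486), without R140Q 2 (0.0268) or without R172K 3 (1.84, adjusted p = 0.0277).

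The fibulins are calcium-binding glycoproteins that join elastin to microfibrils and to basement membranes. Fbln2 was 9.16, 9.36, 9.54 and 9.70 in control, 10.23, 9.74, 10.44 and 10.03 in R140Q and 10.97, 10.79, 9.73 and 11.43 in R172K hearts. Both mutant groups lay above the control group, though R140Q 2 and R172K 3 barely. It rose by 1.29 ± 0.29 in R172K hearts, or 2.44-fold (adjusted p = 0.0128), and passed under all 23 alternatives. The R140Q difference was 0.67 ± 0.29 (adjusted p = 0.252), with an adjusted p of 0.0495 without R172K 3.

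Fbln5, whose product tethers tropoelastin to cell-surface integrins during fibre assembly, stood at 8.36, 8.40, 8.42 and 8.60 in control, 9.003, 8.44, 9.23 and 9.01 in R140Q and 9.54, 9.24, 8.57 and 9.64 in R172K hearts. One array of each mutant group, R140Q 2 and R172K 3, lay in the control range. Fbln5 rose by 0.80 ± 0.21 in R172K hearts (adjusted p = 0.0276). The call ended without control 1 (0.0724), control 2 (0.0693), control 3 (0.0595), R172K 1 (0.087), R172K 2 (0.0607) or R172K 4 (0.069). In R140Q hearts the difference was 0.48 ± 0.21 (adjusted p = 0.273).

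Fbln1, a fibulin found within elastic fibres and basement membranes, went the other way. It was 9.37, 9.69, 10.18 and 9.84 in control, 9.06, 9.05, 9.19 and 9.32 in R140Q and 9.05, 8.77, 9.44 and 9.19 in R172K hearts. All R140Q arrays lay below all control arrays, and of the R172K arrays only R172K 3 reached the control range, above control 1. Fbln1 fell by 0.66 ± 0.16 in R172K hearts, to 0.633 of the control level (adjusted p = 0.0204). That call ended when the 2 compared groups were fitted alone (0.0529), and without control 4 (0.0517), R172K 1 (0.0603) or R172K 2 (0.0585). The R140Q difference was of similar size, -0.62 ± 0.16, but did not pass (adjusted p = 0.0702). It passed with the replicate block (0.0443) and without R172K 3 (0.04). Markers of valve and cartilage-like cells, 8 genes such as Sox9 and Hapln1 with none called, summed to between 895 and 1890 units in control, 726 and 846 in R140Q and 830 and 1387 in R172K hearts. Their highest sums were on control 4 (1890) and control 3 (1664), the arrays with the highest Fbln1, and among mutants on R172K 3 (1387). The match was not particular to this list. The atrial sum was also highest on control 3 (29219) and, among mutants, on R172K 3 (21176), but was the lowest of the controls on control 4 (5651). Resting fibroblast markers also summed highest on control 3 (8403), and among mutants on R172K 4 (7526). Such a sum follows its brightest genes. The median difference of the 8 valve and cartilage-like markers was -0.11 in R140Q hearts (-1.35 to 0.25) and -0.03 in R172K hearts (-0.93 to 0.51). In each contrast 3 of the 8 were positive. The part of any of these cells in the Fbln1 difference was not tested.

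Emilin1 encodes a glycoprotein at the boundary of elastin and microfibrils that restrains the processing of the TGF-beta precursor. Its levels were 6.71, 6.57, 6.67 and 6.92 in control, 7.25, 7.14, 7.54 and 7.22 in R140Q and 7.41, 7.31, 7.22 and 8.26 in R172K hearts. Neither mutant group overlapped the control group, and 3 of the 4 R172K arrays lay among the R140Q values, with R172K 4 well above. Emilin1 rose by 0.84 ± 0.19 in R172K hearts (1.78-fold, adjusted p = 0.0145) and passed under all 23 alternatives, the smallest difference being 0.60 without R172K 4. For R140Q it differed by 0.57 ± 0.19 (adjusted p = 0.138), and passed without R172K 4 (0.0115).

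Ltbp2 belongs to the latent TGF-beta binding proteins by structure, but is known to bind fibrillin and not latent TGF-beta. It was 6.55, 6.79, 6.98 and 7.26 in control, 7.58, 6.89, 8.44 and 7.39 in R140Q and 8.44, 8.09, 7.05 and 9.72 in R172K hearts. R172K 3 lay inside the control range, and R172K 4 was the highest of all arrays. The R172K difference of 1.43 ± 0.46 did not pass (adjusted p = 0.058) but did so without R172K 3 (1.85, adjusted p = 0.00604), while in R140Q hearts it was 0.68 ± 0.46 (adjusted p = 0.516).

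**Figure D2:**
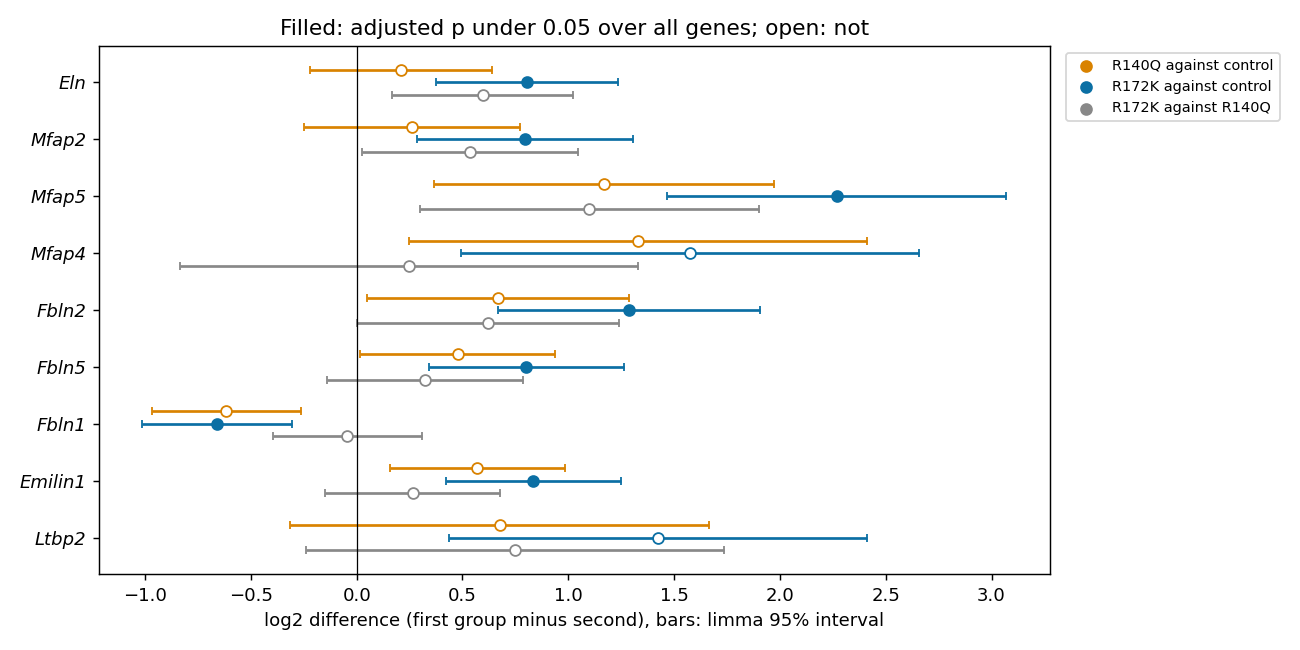
Log2 differences of the 9 genes for R140Q against control, R172K against control and R172K against R140Q (horizontal axis). Points are limma estimates, filled at an adjusted p under 0.05 over all genes, and bars are 95% intervals. The 7 filled points are all for R172K against control, 6 above 0 and Fbln1 below it.

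Read as a set in R172K hearts, 6 of 9 members had all R172K arrays above all control arrays (Eln, Mfap2, Mfap4, Mfap5, Fbln2 and Emilin1), where 7.47% of all genes did so. The number of members called was 7, and 4 without control 2, R172K 1 or R172K 2. It was 9 without R172K 3, and 8 without R172K 3 and R172K 4 together. The share of all genes called in either direction moved with it, from 13% with all arrays to 7.42% without control 2, 6.66% without R172K 1, 8.75% without R172K 2, 20.9% without R172K 3 and 17.8% without both. Mfap5, Fbln2 and Emilin1 were the 3 that passed under every alternative. The sign of all 9 differences was the same under all 23 alternatives.

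In R140Q hearts no member passed the limma test, where 1.08% of all genes were called higher and 1.12% lower. At an unadjusted p under 0.05, 5 members were higher (Mfap4, Mfap5, Fbln2, Fbln5 and Emilin1) and Fbln1 was lower, while 8.79% of all genes were higher and 8.24% lower. The arrays of Mfap5, Fbln2 and Emilin1 lay wholly above the control arrays and those of Fbln1 wholly below, where 7.79% and 7.04% of all genes did so. The count moved with the arrays that set the spread: 4 members passed when the 8 arrays of control and R140Q were fitted alone, 3 without R172K 3 (Mfap5, Fbln1 and Fbln2), 1 without R172K 4 (Emilin1) and 4 without both. Of all genes 2.20% were called in either direction with all arrays, and 6.73%, 5.09%, 4.93% and 8.41% in these respective fits. Without R140Q 3 the R140Q differences that were smaller by over 1.5 times were those of Eln (0.08), Mfap2 (0.082) and Ltbp2 (0.39). Both mutant contrasts use the same control arrays, so their resemblance is not independent.

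The difference between the mutants was tested directly. None of 9 members passed by limma for R172K against R140Q, a contrast in which 0.487% of all genes were called higher and 0.998% lower in R172K. At an unadjusted p under 0.05, 4 members were higher in R172K (Eln, Mfap5, Mfap2 and Fbln2), against 7.47% of all genes. No member had R172K arrays wholly above the R140Q arrays, as 3.07% of all genes had. The estimates and their 95% intervals were 1.10 (0.30 to 1.90) for Mfap5, 0.60 (0.17 to 1.02) for Eln, 0.62 (0.003 to 1.24) for Fbln2, 0.53 (0.02 to 1.04) for Mfap2 and 0.75 (-0.24 to 1.74) for Ltbp2. For Mfap4 the interval was widest, 0.25 (-0.84 to 1.33), and for Fbln1 it was -0.04 (-0.40 to 0.31). Emilin1, at 0.26 (-0.15 to 0.68), and Fbln5, at 0.32 (-0.14 to 0.79), had intervals that include 0 as well. Single arrays moved several of these estimates by over 1.5 times. Without R172K 4 the difference was 0.026 for Emilin1, 0.19 for Fbln5, 0.27 for Mfap2, 0.29 for Ltbp2, 0.39 for Fbln2 and -0.096 for Mfap4. Without R140Q 2 it was 0.16 for Fbln5 and -0.21 for Mfap4. Without R172K 3 it was 0.55 for Fbln5, 1.18 for Ltbp2 and 0.50 for Mfap4. Fbln1 lay between -0.152 and 0.069 when 1 array was left out. Without R172K 3 the members called were Eln (0.78, adjusted p = 0.0184), Mfap5 (1.44, adjusted p = 0.0189) and Fbln2 (0.96, adjusted p = 0.011), where 7.91% of all genes were called in either direction against 1.48% with all arrays.

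Single arrays ordered the members in much the same way. R172K 4 was the highest of 12 arrays for 7 of 9 members, the exceptions being Eln, highest on R172K 1, and Fbln1, highest on control 3. Control 1 was the lowest array for 5 members and control 2 for 3. The mean of the members, each centred on its own mean, was between -0.75 and -0.29 on control, -0.46 and 0.50 on R140Q and -0.13 and 1.15 on R172K arrays. R140Q 3 (0.50) was the highest R140Q array and R140Q 2 (-0.46) fell among the controls, while R172K 3 (-0.13) was the lowest R172K array. Pearson's r of each member with the mean of the other members over the 12 arrays ran from 0.81 for Eln to 0.97 for Ltbp2, and was -0.55 for Fbln1. After each group's own mean was taken off, the same r was 0.96 for Ltbp2, 0.95 for Mfap5, 0.63 for Eln and 0.08 for Fbln1. These values describe 12 arrays that share their groups, and single arrays such as R172K 4 may carry much of them.

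The genes most like the mean of the members over the 12 arrays, by Pearson's r, were the fibrillar collagen genes Col1a1 (0.987) and Col1a2 (0.987). They were followed by the lysyl oxidase family gene Loxl1 (0.984), the follistatin-like gene Fstl1 (0.981), the small proteoglycan biglycan (Bgn, 0.980), the RNA-binding gene Bicc1 (0.977), and the cathepsins Ctsk (0.976) and Ctsa (0.974). Col1a1 went from a mean log2 level of 8.51 in control to 9.22 in R140Q and 9.99 in R172K hearts, and Fstl1 went from 9.61 to 10.52 and 11.26.

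**Figure D3:**
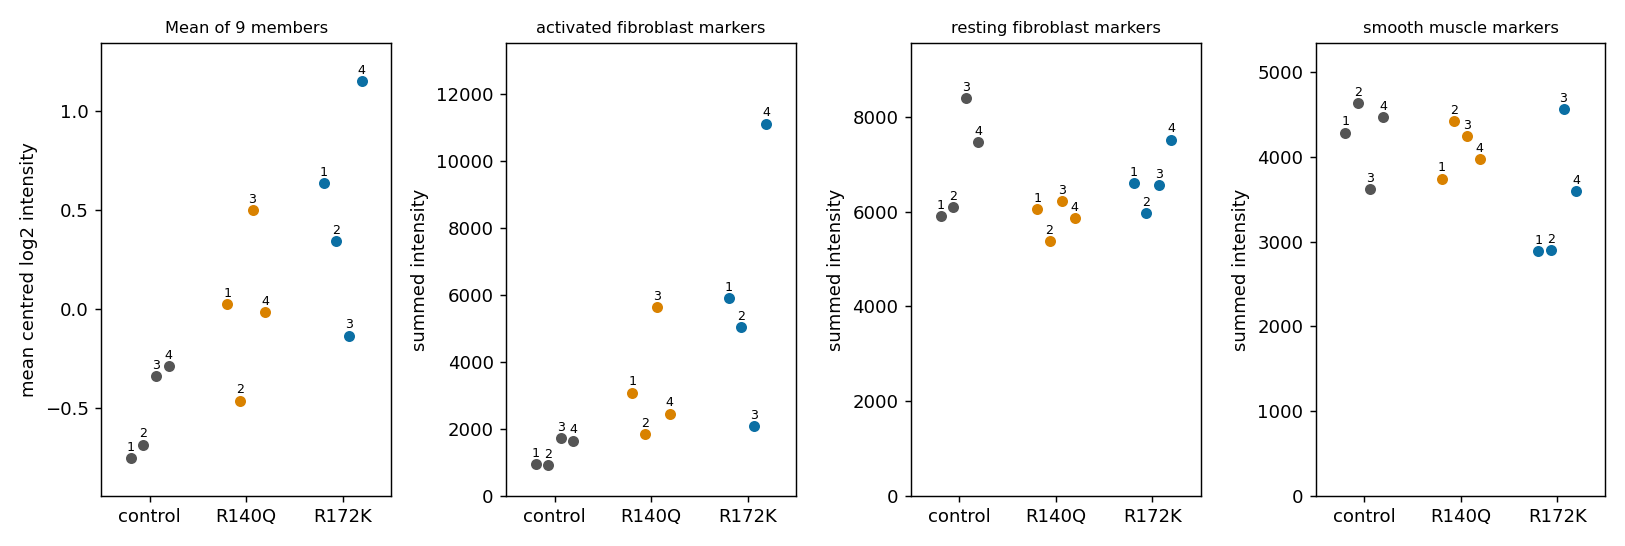
Values of the 12 arrays, with replicate numbers, in control, R140Q and R172K hearts: the mean of the 9 members (log2, each centred on its own mean) and the summed linear intensities of activated fibroblast, resting fibroblast and smooth muscle markers. R172K 4 is highest and the controls lie low in both of the first panels, with activated fibroblast sums from 902 to 1726 in control and from 2066 to 11102 in R172K hearts.

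Markers of cell types of the heart were set beside these values. Over all genes 6.23% were called higher and 6.78% lower in R172K hearts, and 1.08% and 1.12% in R140Q hearts. In lists this short, 1 call is close to such shares. Of 8 activated fibroblast markers 5 rose in R172K hearts (Postn 2.68, Tnc 2.69, Cilp 2.15, Meox1 1.38 and Ckap4 0.91), and none fell. None of the 8 was called in R140Q hearts, where their differences ran from -0.53 to 1.79. Their summed intensity, which follows the brightest genes, was 902 to 1726 in control, 1831 to 5630 in R140Q and 2066 to 11102 in R172K hearts. R172K 4 was highest, R140Q 3 the highest of its group and R172K 3 the lowest of its group, as for the members. Of 11 resting fibroblast markers Pdgfra rose (0.62), Clec3b fell (-0.45) and 9 did not pass, and the sums overlapped between groups (5910 to 8403 in control, 5382 to 6224 in R140Q and 5979 to 7526 in R172K). Of 8 smooth muscle markers Synpo2 fell (-0.43) and none rose, with sums of 3624 to 4641 in control, 3745 to 4425 in R140Q and 2886 to 4567 in R172K hearts. On R172K 1, 2, 3 and 4 the smooth muscle sums were 2886, 2901, 4567 and 3595. Eln levels on these arrays were 9.17, 8.48, 8.03 and 8.64. Markers of other cells of the heart were read in the same way. Of 10 cardiomyocyte markers 5 fell in R172K hearts (Myl2 -0.54, Ryr2 -0.49, Ttn -0.31, Tnni3 -0.27 and Pln -0.26) and none was called higher. Only Actn2 had a positive difference, with all R172K arrays above all control arrays (0.22, limma adjusted p = 0.0689). R172K 4, where most members were highest, had the lowest sum (76261). None of the 10 was called in R140Q hearts. Of 8 endothelial markers 3 rose in R140Q (Cdh5, Kdr and Esam) and 2 in R172K hearts (Kdr and Esam), with sums of 8375 to 8758 in control, 10601 to 11051 in R140Q and 9114 to 10810 in R172K hearts, both mutant groups wholly above control. Of 8 epicardial and mesothelial markers Msln (0.70) and Aldh1a2 (1.79) rose in R172K hearts, with sums of 724 to 1152 in control, 684 to 893 in R140Q and 1030 to 1654 in R172K hearts, R172K 4 again the highest. Of 7 pericyte markers Pdgfrb (0.53) and Rgs5 (0.29) rose and Abcc9 (-1.11) fell in R172K hearts, while the sums overlapped (8889 to 10075 in control, 8877 to 10693 in R140Q and 8944 to 10035 in R172K). None of these lists holds a member. The part of any of these cell types in the members' differences was not tested.

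Of the other genes of elastic fibre assembly, anchorage and breakdown, 51 were listed and 49 measured. In R172K hearts 15 rose and 4 fell, against 6.23% and 6.78% of all genes, and their median difference was 0.34. Among the cross-linking enzymes, Lox rose from 6.17 ± 0.17 (SD, n = 4) in control to 9.53 ± 1.57 in R172K hearts and Loxl1 from 8.10 ± 0.23 to 9.53 ± 0.67, both under every alternative. Loxl3 (0.85, limma adjusted p = 0.0841) and Loxl4 (0.38, adjusted p = 0.0917) did not pass. Lox was 10.16, 9.79, 7.29 and 10.91 in the R172K hearts and no higher than 6.34 in control, so that even R172K 3 lay above all controls.

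Among proteins of the microfibril and its surroundings, the fibrillin gene Fbn2 (0.72, a call that ended under 15 of 22 alternatives) and the cell adhesion gene Svep1 (1.84) rose, and 4 genes fell. These were the latent TGF-beta binding protein gene Ltbp1 (-0.67), the fibulin-family gene Efemp1 (-0.89), Emilin2 (-0.78, a call that ended under 12 of 23 alternatives) and the microfibril-binding gene Adamtsl4 (-0.43). Ltbp1 was within 8.87 to 8.89 on all control arrays, and 8.32, 8.01, 8.39 and 8.10 in R172K hearts (adjusted p = 0.00129). It was 8.38, 8.33, 8.48 and 8.55 in R140Q hearts (-0.44, adjusted p = 0.0229), so every mutant array lay below every control. The same 4 genes were the ones called in R140Q hearts, at -1.29 for Efemp1, -1.09 for Emilin2, -0.85 for Adamtsl4 and -0.44 for Ltbp1, and none of the 49 was called higher there, where 1.12% of all genes were called lower and 1.08% higher. At an unadjusted p under 0.05, 11 of them were higher and 7 lower, against 8.79% and 8.24% of all genes. Thus Emilin1 and Emilin2 had differences of opposite sign in both mutants, as had Ltbp2 and Ltbp1. However, Ltbp2 passed in neither mutant and Emilin1 did not pass in R140Q hearts. The related genes Emilin3 (-0.10 in R140Q and -0.12 in R172K), Ltbp3 (0.17 and 0.52) and Ltbp4 (0.35 and 0.02) did not pass in either mutant.

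The TGF-beta genes Tgfb1 (0.74) and Tgfb2 (1.13) rose in R172K hearts, and Tgfb3 did not pass (0.45, adjusted p = 0.207). Matrix and receptor partners that rose were fibronectin (Fn1, 1.57), the proteoglycans versican (Vcan, 1.32) and biglycan (Bgn, 0.88) and the integrin subunit Itgb3 (0.69). Proteases able to cleave elastin rose as well: the cathepsins Ctss (1.21), Ctsk (0.94) and Ctsl (0.54) and the metalloproteinases Mmp2 (0.64) and Mmp12 (0.62), while Mmp9 (0.06) and neutrophil elastase (Elane, 0.07) did not pass. Mmp12, Mmp9, Elane, Fbn2, Loxl4 and Emilin3 are among 12 of these genes whose mean over all arrays is dimmer than the median gene. There a level may lie at the array background. Lox (6.17) and Ctsk (6.255) had control means between those of Loxl4 (6.05) and Emilin3 (6.57), so their control levels may lie there too. The macrophage markers, a further source of Ctss and Mmp12, summed to 2922 to 4376 in control and 3089 to 7742 in R172K hearts with none of 8 called, and their part was not tested.

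**Figure D4:**
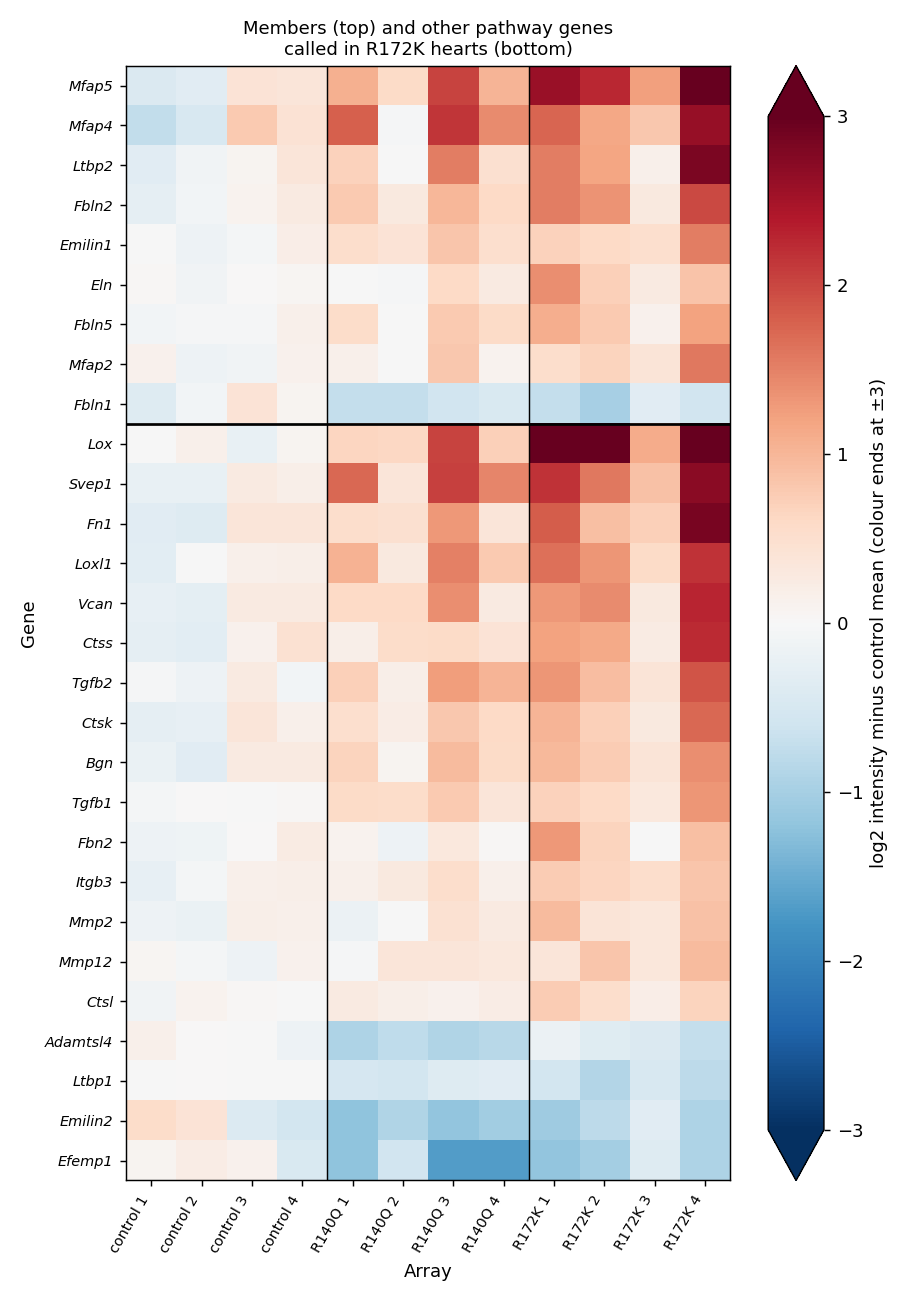
Log2 intensity minus the control mean (colour, ends at ±3) on the 12 arrays (columns) for the 9 members (upper rows) and the 19 other pathway genes called for R172K against control (lower rows). R172K 4 is strongest and R172K 3 weakest among the R172K columns for most rows, and Fbln1, Adamtsl4, Ltbp1, Emilin2 and Efemp1 are lower in the mutants.

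Single arrays moved these calls. Of the 19 in R172K hearts 8 passed under every alternative that could test them (Lox, Loxl1, Ltbp1, Svep1, Itgb3, Tgfb1, Mmp12 and Ctsl). The count was 8 without control 1, 9 without control 2, 9 without R172K 1 and 27 without R172K 3, with 7.82%, 7.42%, 6.66% and 20.9% of all genes called in these fits. In R140Q hearts the 4 calls became 1 without control 1, control 2, R140Q 1 or R140Q 3, 2 without control 3 or R140Q 4 and 7 without R172K 4, where the share of all genes called was between 0.502% and 1.3% in the former fits and 4.93% in the last. Adamtsl4 (adjusted p = 0.00394) passed throughout. Between the mutants 1 of 49 was called, against 0.487% of all genes higher and 0.998% lower. It was Thsd4, a fibrillin-binding Adamts-like gene, with 0.27 (limma adjusted p = 0.0498). Thsd4 is also among the 12 genes dimmer than the median gene, with means of 5.96 in R140Q and 6.23 in R172K hearts. That call ended under 19 of 22 alternatives, and without R172K 3 the count was 11, with 7.91% of all genes called. The next by p were Furin (0.41, adjusted p = 0.0512), Adamtsl4 (0.43, adjusted p = 0.0597) and Lox (2.36, adjusted p = 0.0715).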

How the data were processed

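The authors deposited 1 intensity per probe set and array, made with RMA per the submitters' processing notes, whose version and settings are not stated there. The intensity is linear as judged from its values, and log2 was taken with no pseudocount. RMA sets arrays to a common distribution, so a shift shared by most genes cannot be seen. Of 34760 probe sets 21640 had 1 gene symbol. The probe set with the highest mean stood for each of the 19937 genes, and every measured member had 1. Group means of all 12 arrays were fitted with limma 3.58.1 in R 4.3.3 (lmFit, eBayes, two-sided; 9 residual and 3.54 prior degrees of freedom), with Benjamini-Hochberg adjustment over all genes. The fit was tested on simulated data. The number of arrays limits the precision. Members, pathway and marker lists and tests were chosen with earlier results of these data known. All members are named, as are the pathway genes called, the 4 of smallest p in each contrast and the 8 genes most like the members. Loxl3, Loxl4, Emilin3, Ltbp3, Ltbp4, Tgfb3, Mmp9 and Elane were named after their values were seen, as were all marker genes. Alternatives covered the arrays fitted, replicate block, probe sets, dim genes, normalization, variance model, array weights and each array left out. Leaving out R172K 3 and R172K 4 together, and applying the alternatives to pathway genes, were added after seeing the data. The main fit did not pair arrays by replicate number. Correlations of same-numbered deviations ran from -0.336 to 0.152, which cannot show whether the arrays were paired.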

Additional observations from a re-analysis of the deposited data

How the results depend on the processing

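Over the 23 alternatives the median of the members was 0.79 to 1.05 for R172K against control, where the main fit gave 0.84. For R140Q against control it was 0.39 to 0.64, with 0.57 in the main fit. For R172K against R140Q it was 0.27 to 0.71, with 0.53 in the main fit. Counts of members called moved as well. Over all genes the share called ran over the settings from 6.66% to 27.8% for R172K, from 0.502% to 8.41% for R140Q and from 0.00502% to 8.9% between the mutants. For R140Q against control 0 became 4 with the 2 groups alone, 5 with array weights, 4 without R172K 3 and R172K 4, and 0 to 3 with 1 array left out. With the replicate block 1 was called there, 7 for R172K against control and 0 for R172K against R140Q. For R172K against control the range was 4 to 9 with 1 array left out. For R172K against R140Q 0 became 3 with array weights, 1 without control 3, R172K 3 and R140Q 4 together, 2 without R172K 3 and R172K 4, and 0 to 3 with 1 array left out. Of the other pathway genes, the 4 called for R140Q became 9 with the 2 groups alone, 10 with array weights, 10 without R172K 3 and R172K 4 and 1 to 7 with 1 array left out, and the 19 for R172K became 29 with array weights and 8 to 27. The 1 called between mutants was 0 with the 2 groups alone, the replicate block, all probe sets (averaged or tested singly), median centring or the intensity trend, 3 without dimmer genes, 2 with quantile normalization, 10 with array weights, 5 without control 3, R172K 3 and R140Q 4, 8 without R172K 3 and R172K 4, and 0 to 11 with 1 array left out. The difference between the mutants changed sign for Mfap4 without R140Q 2 (-0.209) or R172K 4 (-0.096), with up to 0.519 when 1 array was left out, and for Fbln1 without R140Q 4 (0.012) or R172K 2 (0.069), with down to -0.152. The cause was not tested.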
